A study of Mus musculus with 8 samples.

Results

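Sialic acid and glycan-editing enzymes were described across a pair of expression profiles of mouse marginal zone B cells (MZBs), the splenic B cells that lie beside the marginal sinus and answer early to antigens carried in blood. The members are 9 genes, chosen by symbol from the 23997 in the processed table: Cmah, St6gal1, St3gal1, St3gal2, St3gal6, Gcnt1, Mgat5, B4galt1 and Chst1. All 9 were found. The study sequenced RNA from MZBs labelled with the genotype ACKR3+ (4 libraries, named GFPposi in the titles) and with the genotype ACKR3- (4 libraries, named GFP-). All came from C57BL/6 mice with 4 mice per group, and the sources used here give neither age nor sex, nor the allele that carries the GFP. The atypical receptor ACKR3 takes up the chemokine CXCL12 without classical G protein signalling.

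The table gives 1 estimated fragment count and 1 variance per gene for each of 2 conditions, named q2 and q1. Neither name occurs in the labels, so no direction with respect to ACKR3 can be stated, and every value is given by column. The fragments summed to 16653774 in q2 and 16877559 in q1. With 1 pooled value per condition, the spread between mice is unknown, so nothing below is tested or replicated. The value after ± is the SD that the deposited variances give; the file does not say whether it describes a single library or a condition mean. Log2 ratios divide q2 by q1 after adding a pseudocount of 1 fragment, and were formed for the 9582 genes whose higher column held 100 fragments or more. Ackr3 itself had 149 fragments in q2 and 1030 in q1. Cr2, which encodes the complement receptor CD21 that MZBs carry in abundance, had 70851 fragments in q2 and 81167 in q1.

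Sialic acids cap the glycans of the B cell surface, and their form, linkage and underlying chain decide which lectins can bind. In the mouse the lectin CD22, an inhibitory coreceptor of the B cell receptor, prefers N-glycolylneuraminic acid in alpha-2,6 linkage, which needs the hydroxylase Cmah and the sialyltransferase ST6Gal I. Germinal center B cells of the mouse are known for low Cmah, which exposes the GL7 epitope, and for O-glycans without a sialic acid cap, which bind peanut agglutinin. Branching, galactose extension and sulfation set how many acceptor sites a chain offers and whether galectins can bind it.

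The 9 enzymes did not lie to one side. Chst1 was 18.6-fold higher in q2, St6gal1 1.76-fold and Cmah 1.47-fold, and St3gal2 was 1.32-fold higher in q1. St3gal1, Gcnt1, Mgat5, B4galt1 and St3gal6 were apart by less than 2 deposited SD. At least 2-fold higher in q2 was 1 member, Chst1, where 1.84% of all genes were; none was at least 2-fold higher in q1, where 0.438% of genes were. More than 2 deposited SD higher in q2 were 3 members, against 4.15% of all genes, and 1 was higher in q1 by that measure, against 2.11%. The median log2 ratio was 0.28 over the 9 members and 0.00 over the 9582 genes. Chst1 reached 100 fragments in q2 alone and could enter only by differing, so these counts and this median are descriptions and not support for a shift of the group.

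**Figure D1:**
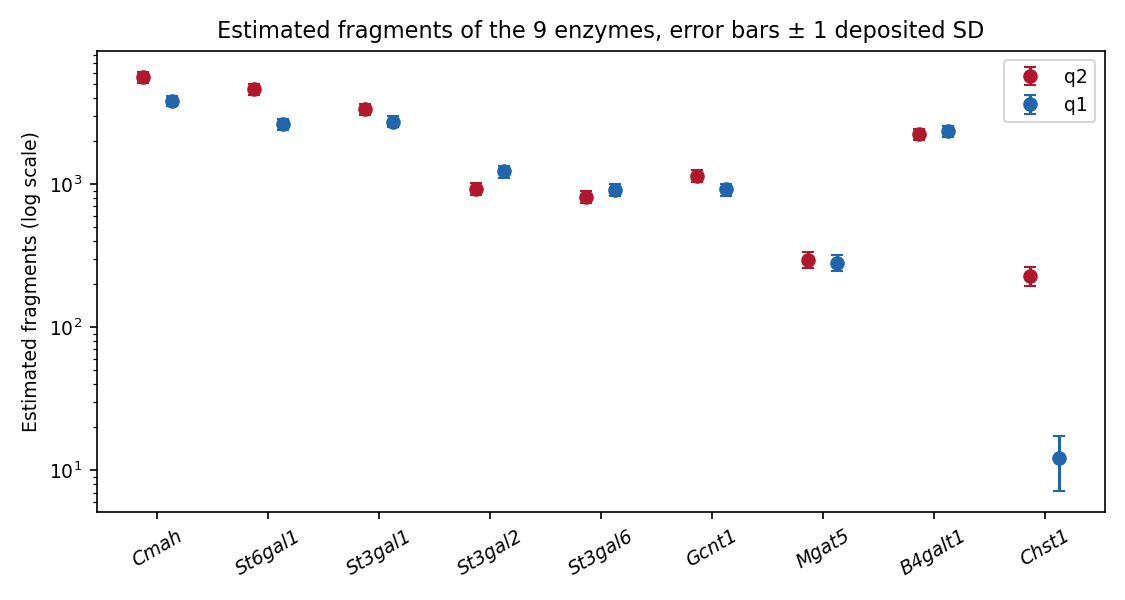
Estimated fragments of the 9 enzymes on a log axis, with q2 in red at the left of each pair and q1 in blue at the right; bars are ± 1 deposited SD. Chst1, with 229 fragments in q2 and 12.3 in q1, is the widest pair, while the bars of Mgat5, B4galt1 and St3gal6 overlap.

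The upstream sequence of Chst1, Cmah and St6gal1 is shown because these are the 3 members more than 2 deposited SD higher in q2. RefSeq lists 1 start for Chst1, 2 for Cmah and 3 for St6gal1, so the fragment count of each of the last 2 genes may sum over transcripts from separate starts. Which starts these cells use was not tested. The 150 bases before a start are given on the plus strand of GRCm38.p6, with a CCAAT box in either direction in capitals.
Chst1, chr2:92600967-92601116: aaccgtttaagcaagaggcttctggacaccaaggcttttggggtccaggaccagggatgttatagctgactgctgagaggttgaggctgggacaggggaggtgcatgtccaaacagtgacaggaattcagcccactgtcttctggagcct
Cmah upstream start, chr13:24327254-24327403: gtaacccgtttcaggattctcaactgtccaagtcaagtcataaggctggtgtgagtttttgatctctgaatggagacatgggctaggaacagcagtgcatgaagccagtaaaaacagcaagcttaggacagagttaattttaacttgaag
Cmah downstream start, chr13:24414972-24415121: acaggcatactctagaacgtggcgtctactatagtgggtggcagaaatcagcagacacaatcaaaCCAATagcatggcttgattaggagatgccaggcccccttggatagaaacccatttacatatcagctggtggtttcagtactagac
St6gal1 first start, chr16:23224590-23224739: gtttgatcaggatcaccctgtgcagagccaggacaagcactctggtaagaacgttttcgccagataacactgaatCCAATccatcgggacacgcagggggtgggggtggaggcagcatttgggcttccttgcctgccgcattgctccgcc
St6gal1 last start, chr16:23290320-23290469: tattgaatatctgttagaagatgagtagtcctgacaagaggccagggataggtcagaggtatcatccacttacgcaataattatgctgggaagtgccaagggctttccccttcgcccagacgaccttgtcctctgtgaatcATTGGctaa
Each window was searched on both strands for CCAAT, for the GC box GGGCGG, for the TATA box TATAAA, for the E-box CAGGTG and for the octamer ATGCAAAT, and no hits overlapped. CCAAT was found before the downstream start of Cmah, from base -85 to -81, before the first start of St6gal1, from -75 to -71, and on the other strand before its last start, from -9 to -5. Of 32851 mouse promoter windows of this length, 24.5% held CCAAT, 28.6% GGGCGG, 7.57% TATAAA, 10.6% CAGGTG and 0.998% ATGCAAAT. None of these letters occurred before the Chst1 start or the upstream Cmah start, nor before the middle St6gal1 start, which is not printed. Of the 9 members, 7 had an entry in the RefSeq promoter table.

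Cmah (chromosome 13, 24327404 to 24477377, GRCm38, plus strand) converts the activated form of N-acetylneuraminic acid to that of N-glycolylneuraminic acid. It had 5597 ± 487 fragments in q2 and 3806 ± 329 in q1. The log2 ratio was 0.56 ± 0.18, higher than that of 96.5% of all genes and of 99.4% of the 769 genes whose mean count lay within 1.5 times its own. Cmah was thus the higher in the column in which germinal center genes were also higher. On the list of 14 germinal center B cell genes all 14 had more fragments in q2, against 50.2% of all genes. Of these, 9 were at least 2-fold higher, where 1.84% of all genes were. The median log2 ratio of the list was 3.72. On it, 9 genes reached 100 fragments in q2 alone and could enter only by being higher there. The list was also drawn up with earlier results of these data known, so these counts and this median are descriptions. The list summed to 6907 fragments in q2 and 3508 in q1, with none at 0 in either column. Gpr174 held 2530 of these in q2 and 2175 in q1, and the other genes summed to 4377 in q2 and 1333 in q1. Bcl6, the transcription factor that directs the germinal center state, had 1130 fragments in q2 and 553 in q1. In RNA from many cells, fewer cells of a type and less RNA per cell cannot be told apart, and the part of germinal center cells in the Cmah difference was not tested.

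The steps that make and activate sialic acid showed no such difference. Gne, the enzyme that starts the pathway, had 1086 fragments in q2 and 1131 in q1, at a log2 ratio of -0.06 ± 0.19. Cmas, which couples sialic acid to CMP, stood at 0.04 ± 0.22, and Slc35a1, which carries CMP-sialic acid into the Golgi, at -0.01 ± 0.24. Nans, the synthase that makes the phosphorylated acid, stood at 0.31 ± 0.21. On the list of 10 genes of sialic acid supply and modification, 9 reached 100 fragments, 4 higher in q2 and 5 in q1. Of all genes, 50.2% were higher in q2 and 49.8% in q1. Cmah was the 1 gene of this list more than 2 deposited SD apart, and the median log2 ratio of the list was -0.01. Over all genes 4.15% were that far apart toward q2 and 2.11% toward q1.

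St6gal1 (chromosome 16, 23224740 to 23360350, plus strand) adds sialic acid in alpha-2,6 linkage to the galactose of N-glycans. It had 4575 ± 404 fragments in q2 and 2603 ± 226 in q1. The log2 ratio of 0.81 ± 0.18 was higher than that of 97.6% of all genes and of 99.6% of the 1045 genes of similar count. In the annotation 200 bases of its exons are shared with BC106179, a transcript of the opposite strand, and whether counting used the strand is not given in the sources used here. St6gal2, the other enzyme of this linkage, had no fragments in either column.

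The St3gal enzymes add sialic acid to galactose in alpha-2,3 linkage, and those among the members did not lie to one side. St3gal1 (chromosome 15, 67102875 to 67176830, minus strand), which caps the core 1 O-glycan, had 3327 ± 288 fragments in q2 and 2731 ± 238 in q1, at a log2 ratio of 0.28 ± 0.18. St3gal2 (chromosome 8, 110919922 to 110972480, plus strand), which caps the same core and gangliosides, had 927 ± 90.1 fragments in q2 and 1223 ± 114 in q1, at -0.40 ± 0.19. St3gal6 (chromosome 16, 58468125 to 58524243, minus strand), which caps lactosamine chains, had 816 ± 81.1 fragments in q2 and 913 ± 88.9 in q1, at -0.16 ± 0.20. Of these 3, St3gal1 was the higher in q2, and St3gal2 and St3gal6 were the higher in q1. St3gal2 lay 2.06 deposited SD from 0, and with the columns scaled to equal totals it came under 2 SD. The annotation gives St3gal6 1603 exon bases in common with Dcbld2 of the opposite strand, which had 58.7 fragments in q2 and 50.7 in q1.

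Levels per length set these enzymes side by side, as fragments per kb of the longest annotated transcript in 1000000 fragments of the column. St6gal1 was at 60.97 ± 5.39 in q2 and 34.2 ± 2.98 in q1. St3gal1 was at 34.9 ± 3.02 in q2 and 28.2 ± 2.46 in q1, and St3gal2 at 12.7 ± 1.23 in q2 and 16.5 ± 1.53 in q1. The level per length of St3gal1 was thus 2.75 times that of St3gal2 in q2 and 1.71 times in q1. Summed over the 6 St3gal genes the level was 73.1 in q2 and 73.3 in q1, so the alpha-2,3 family summed to nearly the same level in both columns. St6gal1 stood at 0.835 of that sum in q2 and 0.467 in q1. With the union of all exons as the length, these 2 shares were 0.929 in q2 and 0.521 in q1.

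**Figure D2:**
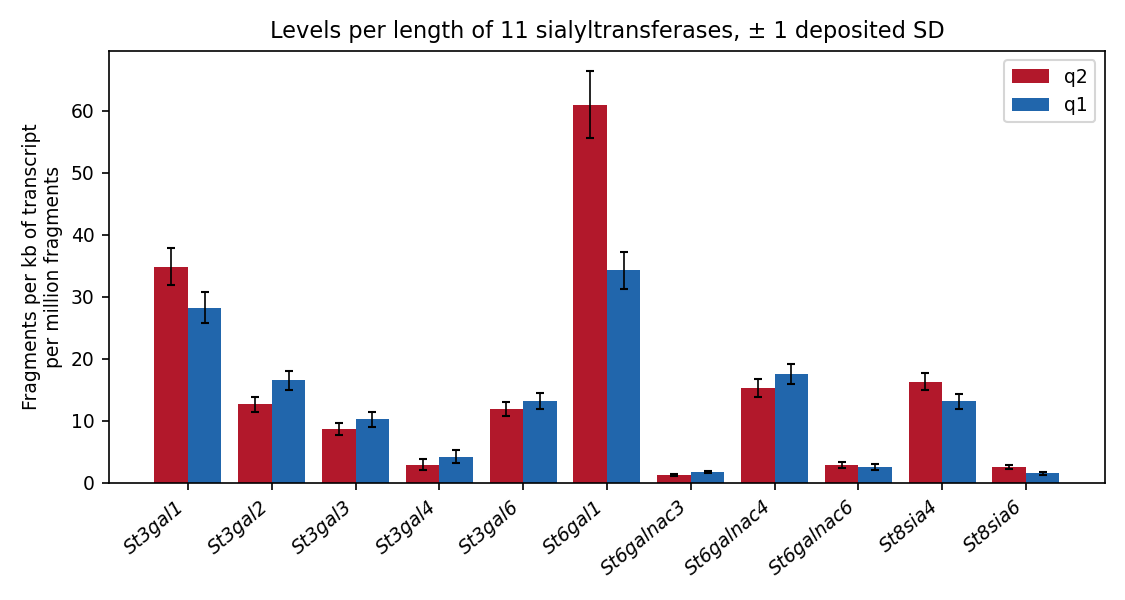
Levels per length of the 11 sialyltransferases that reached 100 fragments, as fragments per kb of the longest transcript in 1000000 fragments, with q2 in red at the left and q1 in blue; bars are ± 1 deposited SD. St6gal1 stands at 60.97 in q2 and 34.2 in q1, and St3gal1 follows at 34.9 in q2 and 28.2 in q1.

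Among the 20 sialyltransferase genes, 11 reached 100 fragments. Of these, 5 were higher in q2 and 6 in q1, against 50.2% and 49.8% of all genes, with a median log2 ratio of -0.16. This median has no firm sign: it was 0.17 with a minimum of 20 fragments and 0.06 with a minimum of 500. Besides St6gal1, the gene more than 2 deposited SD higher in q2 was St8sia6, which extends sialic acid in alpha-2,8 linkage. Of all genes 4.15% were so. St8sia6 had 314 fragments in q2 and 193 in q1, at a log2 ratio of 0.70 ± 0.28. St8sia4, a polysialyltransferase, had 2722 fragments in q2 and 2216 in q1, at 0.30 ± 0.18. St3gal4 stood at -0.55 ± 0.55, St3gal3 at -0.25 ± 0.24, and St6galnac3, St6galnac4 and St6galnac6, which add sialic acid to N-acetylgalactosamine, at -0.48 ± 0.29, -0.23 ± 0.19 and 0.17 ± 0.36. Of the 9 genes under 100 fragments, 4 had none in either column. Neu1, the lysosomal sialidase that removes these caps, had 974 fragments in q2 and 1133 in q1, at -0.22 ± 0.19, and was the 1 of 4 sialidase genes to reach 100.

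Gcnt1 (chromosome 19, 17326141 to 17372844, minus strand) adds the branch that turns core 1 into the core 2 O-glycan and so competes with St3gal1 for the same acceptor. It had 1135 ± 108 fragments in q2 and 918 ± 89.6 in q1, at a log2 ratio of 0.31 ± 0.20. St3gal1 had 2.36 times the level per length of Gcnt1 in q2 and 2.39 times in q1, so this quotient was nearly the same in both columns. St3gal2, which caps the same core, is outside this quotient, and its level per length was 12.7 in q2 and 16.5 in q1. C1galt1, which makes the core 1 acceptor, had 1262 fragments in q2 and 866 in q1, at 0.54 ± 0.19. Its chaperone C1galt1c1, known as Cosmc, stood at 0.10 ± 0.29. Of 21 genes of mucin-type O-glycan cores, 11 reached 100 fragments, and C1galt1 was the 1 gene more than 2 deposited SD apart. Over all genes 4.15% were that far apart toward q2 and 2.11% toward q1. Of the 11, 8 were higher in q2 and 3 in q1, against 50.2% and 49.8% of all genes. The median of the 11 was 0.03. The Galnt enzymes that place the first sugar lay between -0.12 and 0.22, with Galnt11 the lowest and Galnt1, at 3698 fragments in q2 and 3184 in q1, the highest.

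Mgat5 (chromosome 1, 127205015 to 127488336, plus strand) makes the N-glycan branch that carries chains bound by galectins. It had 297 ± 37.7 fragments in q2 and 283 ± 36.5 in q1, at a log2 ratio of 0.07 ± 0.26, and the exact 95% Clopper-Pearson interval of the q2 over q1 ratio, for counting error alone, was 0.889 to 1.24. Its level per length, 2.11 in q2 and 1.99 in q1, was among the lowest of the 9 members. The annotation gives it 152 exon bases in common with Tmem163 of the opposite strand, which had 349 fragments in q2 and 367 in q1. Mgat1 and Mgat2, which start the earlier branches, stood at 0.08 ± 0.18 and 0.27 ± 0.19. Of the 15 genes of N-glycan trimming and branching, 10 reached 100 fragments. Of these, 8 were higher in q2 and 2 in q1, against 50.2% and 49.8% of all genes, and the median was 0.17. Fut8, which adds the core fucose, was the 1 gene more than 2 deposited SD apart. Over all genes 4.15% were that far apart toward q2 and 2.11% toward q1. Fut8 had 882 fragments in q2 and 487 in q1, at a log2 ratio of 0.86 ± 0.22. Man1b1, Man1a and Mgat4a stood at 0.33 ± 0.18, 0.24 ± 0.18 and -0.26 ± 0.18.

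B4galt1 (chromosome 4, 40804602 to 40854005, minus strand) adds the galactose on which most sialic acid is placed. It had 2229 ± 196 fragments in q2 and 2339 ± 205 in q1, at a log2 ratio of -0.07 ± 0.18. The same interval of its ratio was 0.899 to 1.01. On the list of galactose and lactosamine extension, 10 of 20 genes reached 100 fragments. Of these, 6 were higher in q2 and 4 in q1, against 50.2% and 49.8% of all genes, and the median was 0.06. B3gnt5, which starts the lacto-series of glycolipids, was the 1 gene more than 2 deposited SD apart. Over all genes 4.15% were that far apart toward q2 and 2.11% toward q1. B3gnt5 had 3071 fragments in q2 and 1933 in q1, at a log2 ratio of 0.67 ± 0.18. B4galt3 and B4galt5, also on this list, stood at -0.17 ± 0.20 and -0.01 ± 0.19.

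Chst1 (chromosome 2, 92599707 to 92615250, plus strand) transfers sulfate to galactose, as in keratan sulfate and sulfated lactosamine. It had 229 ± 33.7 fragments in q2 and 12.3 ± 5.10 in q1. The log2 ratio was 4.11 ± 0.59, and the 18.6-fold difference had an exact 95% counting interval of 10.7 to 37.5, which treats estimated fragments as counts. Few of the 9582 genes had a higher ratio; among them were Rgs13 at 5.82, Gcsam at 5.58, Nuggc at 4.93 and Mybl1 at 4.25, and each of these 4 is on the germinal center list. That list was drawn up with earlier results of these data known, so the overlap is a description, and the part of germinal center cells in the Chst1 value was not tested. Chst1 was also the least abundant member in q1, with a level per length of 5.12 in q2 and 0.272 in q1.

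The difference in Chst1 was not shared by the sulfotransferases at large. Of 18 genes of carbohydrate sulfotransferases and sulfate donor supply, 10 reached 100 fragments. Of these, 7 were higher in q2 and 3 in q1, against 50.2% and 49.8% of all genes. Chst1 was the 1 gene more than 2 deposited SD apart, and over all genes 4.15% were so toward q2 and 2.11% toward q1. Chst3, a chondroitin sulfotransferase and the most abundant of the list per length, had 7994 fragments in q2 and 6641 in q1, at 0.27 ± 0.18. Chst11, Chst12 and Chst15 stood at 0.30 ± 0.27, 0.21 ± 0.24 and 0.21 ± 0.19. Papss1, which makes the sulfate donor, stood at 0.03 ± 0.24, and Slc35b2, which carries it into the Golgi, at -0.11 ± 0.20. The median of the list was 0.16, or -0.08 with a minimum of 500 fragments, a setting that Chst1 does not pass.

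**Figure D3:**
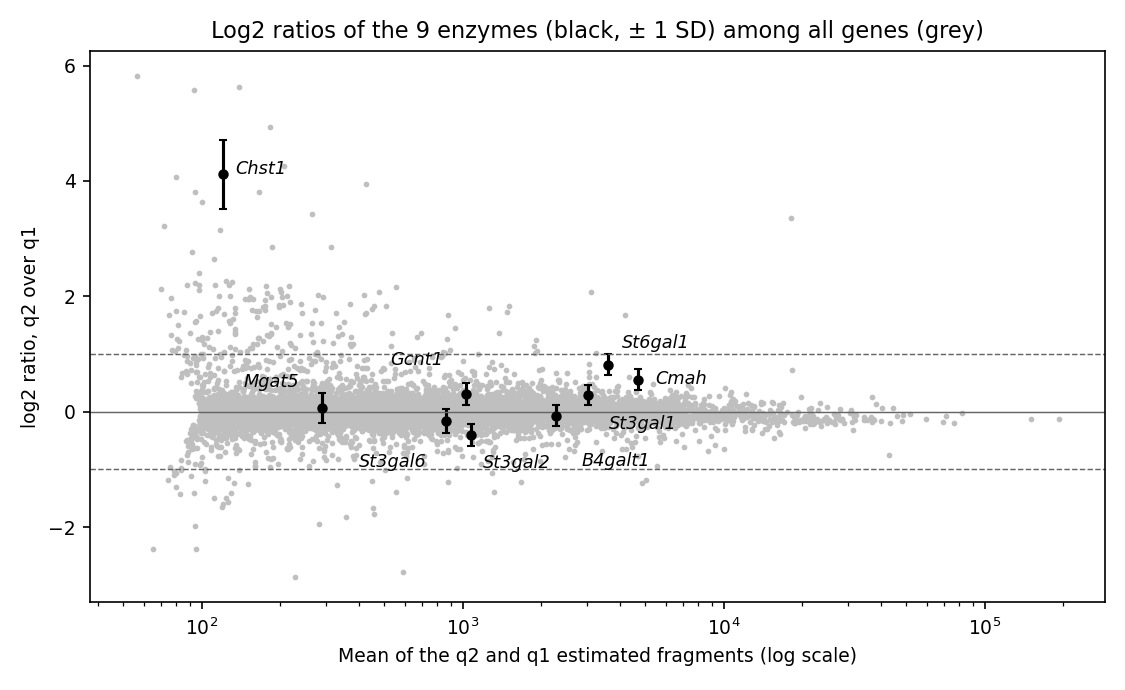
Log2 ratio of q2 over q1 against the mean of both columns on a log axis, with the 9 enzymes in black with ± 1 SD and all 9582 genes in grey; dashed lines mark 2-fold. Chst1, at 4.11, lies with the few genes at the top, Cmah and St6gal1 lie above the bulk of genes of similar count, and the other 6 lie within the range from -0.40 to 0.31.

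Per length the members fell into an order that the columns shared in part. In q2 St6gal1 was highest, followed by St3gal1 at 34.9, Cmah at 34.3 ± 2.99 and B4galt1 at 33.6 ± 2.96, which did not differ beyond their SD. In q1 B4galt1, at 34.8 ± 3.05, and St6gal1, at 34.2, did not differ beyond their SD, and St3gal1 at 28.2 and Cmah at 23.0 ± 1.99 came next. Gcnt1, St3gal2 and St3gal6 lay between 11.8 and 16.5 in both columns. Mgat5 and Chst1 were lowest, with Chst1 the higher of them in q2 and Mgat5 in q1. With the union of exons as the length, the first 4 and the last 2 places were held by the same genes in each column.

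The lectins that read these glycans included the most abundant transcripts of the set. Cd22 had 40102 fragments in q2 and 36672 in q1, at a log2 ratio of 0.13 ± 0.23, and Siglecg, the related inhibitory lectin, had 13667 in q2 and 16234 in q1, at -0.25 ± 0.19. Lgals1, which encodes galectin-1, was the 1 gene of the list past 2-fold, where 1.84% of all genes were so toward q2. Lgals1 had 188 fragments in q2 and 46.2 in q1, at a log2 ratio of 2.0 ± 0.41. It reached 100 fragments in q2 alone. Lgals9 and Lgals4 stood at -0.17 ± 0.18 and -0.24 ± 0.27. Of 15 lectin genes 14 were in the table and 7 reached 100 fragments, at a median of -0.04. Of these 7, 3 were higher in q2 and 4 in q1, against 50.2% and 49.8% of all genes.

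**Figure D4:**
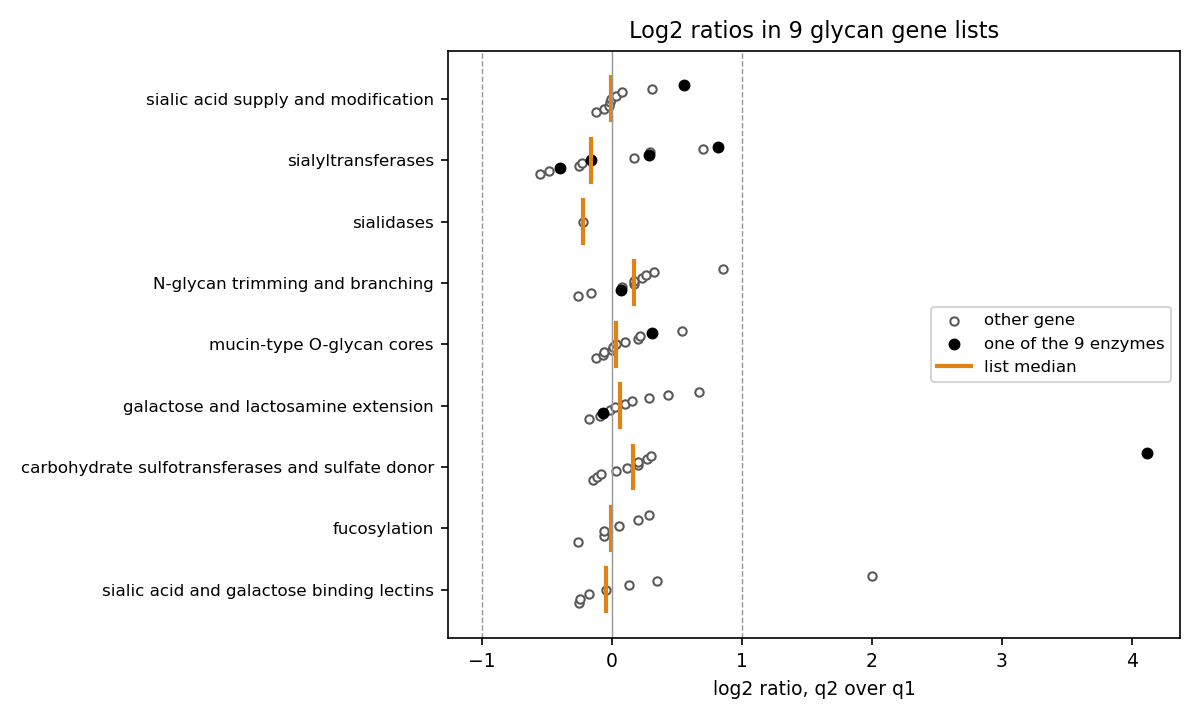
Log2 ratios of q2 over q1 for the members of 9 glycan gene lists that reached 100 fragments; filled points are the 9 enzymes, open points other genes, orange bars the list medians and dashed lines 2-fold. Chst1 at 4.11 and Lgals1 at 2.0 lie past 2-fold, and the list medians lie between -0.22 and 0.17.

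Over the 66 glycan genes other than the members that reached 100 fragments, 38 were higher in q2 and 28 in q1, against 50.2% and 49.8% of all genes. Of these 66, 5 were more than 2 deposited SD higher in q2, where 4.15% of all genes were, and none was so in q1, where 2.11% were. The median log2 ratio of the 66 was 0.03. The 5 were St8sia6, Fut8, C1galt1, B3gnt5 and Lgals1.

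Other gene groups stood beside these values. On the plasma cell list, whose cells carry much secretory and glycosylation machinery, 10 of 11 genes were higher in q2, against 50.2% of all genes. Of these 11, 2 reached 100 fragments in q2 alone and could enter only by being higher there. The list summed to 65136 fragments in q2 and 26697 in q1. Igj, which encodes the J chain of secreted antibodies, gave 33006 of these in q2 and 3234 in q1, and the other genes summed to 32130 in q2 and 23463 in q1. The cell cycle list had all 12 genes higher in q2, against 50.2% of all genes, with sums of 10847 in q2 and 2857 in q1. Of these 12, 7 reached 100 fragments in q2 alone and could enter only by being higher there, so the count is a description. On the marginal zone list 11 of 12 genes were higher in q1, against 49.8% of all genes, with sums of 133415 in q2 and 158856 in q1. On the follicular list 7 of 9 were higher in q2, against 50.2% of all genes, with 26193 in q2 and 21311 in q1. Macrophage and monocyte genes summed to 977 in q2 and 1425 in q1, and the members of that list went both ways. Of its 7 genes with 100 fragments or more, Ly6c2 and Emr1 were more than 2 deposited SD higher in q2, and Slc40a1, Hmox1, Vcam1 and Csf1r were so in q1. Over all genes 4.15% were so in q2 and 2.11% in q1. Each of these named genes reached 100 fragments only in its higher column and could enter only by differing, so these calls are descriptions. T cell genes summed to 1226 in q2 and 834 in q1, of which Lck gave 689 in q2 and 524 in q1. The other T cell genes summed to 537 in q2 and 309 in q1. Among them Cd28, with 165 in q2 and 30.35 in q1, is also on the plasma cell list. Dendritic cell genes summed to 392 in q2 and 233 in q1. Flt3 and Itgax, the 2 that reached 100 fragments, did so in q2 alone and were more than 2 deposited SD higher there. The genes of that list below 100 went both ways. Xcr1 had 28.7 in q2 and 24.9 in q1, and Zbtb46 had 18.1 in q2 and 27.0 in q1. The platelet list summed to 401 in q2 and 221 in q1, of which Itgb3 alone gave 373 in q2 and 198 in q1. NK cell genes summed to 306 in q2 and 340 in q1, of which Prf1 alone gave 189.5 in q2 and 265.3 in q1. The other NK cell genes summed to 116.3 in q2 and 74.35 in q1, the opposite direction. Sums were 35.3 in q2 and 26.2 in q1 for neutrophil genes and 91.5 in q2 and 102 in q1 for erythroid genes. Stromal and endothelial genes summed to 67.5 in q2 and 88.8 in q1. No gene of the plasma cell, cell cycle, marginal zone, follicular, macrophage or T cell list found in the table was at 0 in either column, and the part of these cells in the differences of the enzymes was not tested.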

How the data were processed

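Total RNA was extracted with Trizol and turned into TruSeq libraries, per the labels' protocols. The submitters' processing notes name Cuffdiff 2.2.1, TopHat2 2.0.14, cutadapt 1.8.1 and the build mm10, and the sources used here give no annotation, strand setting or filter. The authors deposited 1 table of estimated counts of fragments per condition, with other columns deposited as their variances, per the file headers. The scaling between q2 and q1 is not stated; the median ratio was 1.00. No gene had an isoform assignment part in its variance.

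Log2 ratios of q2 over q1 (pseudocount 1) and their first-order SD were computed in Python 3.11.15 with numpy 2.4.6 and scipy 1.17.1, and were tested on simulated data. Intervals are exact Clopper-Pearson at 95% and cover counting error only. Size rules were 2-fold and 2 deposited SD; no test was run, as there are no values per library. Members and gene lists were chosen with earlier results of these data known. Genes named were the members, Ackr3, every sialyltransferase reaching 100 fragments, and in each list the genes past a size rule and otherwise up to 4 with the largest absolute ratios; those named for their role in a pathway, the markers and the genes above Chst1 are additions chosen after their values were seen. A few genes that these rules would name are not reported here. Positions and lengths are those of GENCODE M21 (GRCm38), in which 22655 of 23997 symbols were found as such and 899 by way of RefSeq synonyms; upstream sequences are from RefSeq (GRCm38.p6). St6galnac2 had no unique match and is outside the sums per length.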

Additional observations from a re-analysis of the deposited data

How the results depend on the processing

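No paired analysis was possible because both columns are pooled over mice; leaving out a library could not be done either. Under pseudocounts of 0 and 10, minimums of 20 and 500 fragments, equal totals and scaling by the median ratio, 51 of 52 recomputed log2 ratios of the members stayed within their counting interval and none changed sign; Chst1 was 3.42 with a pseudocount of 10, which pulls low counts together. With a minimum of 500 no member was at least 2-fold higher in q2, since Chst1 and Mgat5 were not compared, and with a 1.5-fold rule 2 were. No member was more than 2 deposited SD higher in q1 with equal totals, nor at 3 SD.

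Counts over all genes followed the settings. At least 2-fold higher were 346 genes in q2 and 102 in q1 at a minimum of 20, 39 in q2 and 14 in q1 at 500, and 325 in q2 and 151 in q1 under the 1.5-fold rule, against 176 in q2 and 42 in q1. By deposited SD the counts were 192 in q2 and 130 in q1 at a minimum of 500, and 230 in q2 and 89 in q1 at 3 SD, against 398 in q2 and 202 in q1. Of 54 recomputed list medians 6 changed sign: sialic acid supply to 0.0361 with a minimum of 500 and 0.0137 with equal totals, sialyltransferases to 0.168 with 20 and 0.0617 with 500, sulfotransferases to -0.0827 with 500 and lectins to 0.0441 with 20. A minimum changes which genes are compared. Values under 100 fragments are limited by depth.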

Other observations

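Fucosyltransferases and other glycan genes under 100 fragments have no log2 ratio above and were looked at by count, with exact 95% Clopper-Pearson intervals for counting error only. They were picked after their values were seen. Fut4, which makes the Lewis x group, had 26.7 fragments in q2 and 7.80 in q1, a ratio of 3.42 with an interval of 1.49 to 8.60. Fut1, which makes the H antigen, had 25.7 fragments in q2 and 5.46 in q1, a ratio of 4.71 with an interval of 1.97 to 17.3. St3gal5, the ganglioside GM3 synthase, had 84.6 fragments in q2 and 45.98 in q1, a ratio of 1.84 with an interval of 1.28 to 2.71. In the other direction, Man1c1 of the N-glycan trimming list had 49.57 fragments in q2 and 73.15 in q1. Its ratio was 0.678, with an interval of 0.468 to 0.995. These intervals leave out the spread between mice. The 6 genes of fucosylation that reached 100 fragments lay between -0.26 and 0.28 on the log2 scale, with Fuk the lowest and Gmds the highest. Of these 6, 3 were higher in each column, against 50.2% of all genes in q2 and 49.8% in q1. Slc35c1, the GDP-fucose carrier, stood at 0.20 ± 0.20. The median of the 6 was 0.00.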
